A study of Mus musculus with 11 samples.

Results

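Marco, Cd36, Cd163, Mrc1 and Msr1 are receptors with which macrophages bind and take up particles, lipids and proteins. They were taken by name, as scavenger and mannose receptors, and 4 of the 5 have a row among the 754 genes measured. Msr1 has no row in the table used here and was not analysed. The 4 transcripts were followed across 4 groups of sorted F4/80+CD11b+ peritoneal macrophages, in a single experiment on what deletion of RELMα (gene Retnla) does to macrophages at rest and in a type 2 cytokine setting. All mice were 6 to 8 week old females whose strain is labelled C57BI/6. They carried Retnla (Rα+/+) or had its coding exons replaced by a TdTomato (Td) reporter on both chromosomes (RαTd/Td, a constitutive deletion in every cell, in a line bred from littermates). They received PBS or IL-4c (IL-4 bound to an antibody that prolongs its action) intraperitoneally on days 0 and 2, and cells were sorted on day 4. PBS was given to 2 Rα+/+ animals (mice 1 and 2) and 2 RαTd/Td animals (mice 3 and 4), and IL-4c to 3 Rα+/+ animals (mice 5, 6 and 7) and 4 RαTd/Td animals (mice 9, 10, 11 and 12). Values are Nanostring normalized counts, in which each barcoded probe that found its transcript is counted and scaled to housekeeping genes, with 30 as the lowest value written.

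Scavenger receptors have little sequence in common and are grouped by their taste for modified lipoproteins, microbial surfaces and cell debris. Marco belongs to the collagen-like class A receptors and binds bacteria and unopsonized particles, while Cd36, of class B, takes up oxidized lipoproteins and long-chain fatty acids and helps to clear dying cells. Cd163 clears complexes of hemoglobin and haptoglobin, and Mrc1, the mannose receptor CD206, is a C-type lectin for mannosylated glycoproteins that is widely used as a marker of macrophages activated by IL-4.

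The genotype labels were checked first. Retnla was at 4631 and 4141 normalized counts in Rα+/+ mice given PBS and at 115675, 147349 and 171588 in those given IL-4c. It was at the floor of 30 in all 6 RαTd/Td mice, so each mouse matched its label. Of 6 general macrophage markers, 5 were in the table, and they summed to between 21759.5 and 28523 normalized counts per mouse, with Itgam or Adgre1 the most abundant. The sum hides opposite changes. After IL-4c, Csf1r (log2 −0.97 in Rα+/+ and −0.98 in RαTd/Td mice) and Fcgr1 (−2.62 and −2.36) were called lower. Fcgr1 was at the floor in every treated mouse except mouse 12 (64.3), so its values depend on the floor. Adgre1 was called higher in Rα+/+ mice (0.50) and Cd68 in RαTd/Td mice (0.83). Itgam was not called. Of all genes, 46.3% and 51.9% were called. The 5 eosinophil markers and 4 of the 5 dendritic cell markers were in the table and at the floor in every mouse, and no T cell marker was in it. The single B cell marker, Ms4a1, lay between 104.5 and 242 in the PBS-treated mice and at the floor in every IL-4c-treated mouse except mouse 12 (63.1). In bulk RNA of this kind, fewer cells of a type and less RNA per cell cannot be told apart, so a difference below is one in the sorted population.

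Marco was lowest in Rα+/+ mice given IL-4c. In PBS-treated Rα+/+ mice it was at 2766 and 3097 normalized counts, and in PBS-treated RαTd/Td mice at 1687 and 1326. After IL-4c it was at 211, 267 and 341 in the Rα+/+ mice and at 463, 641, 2398 and 3111 in RαTd/Td mice 9 to 12. Every treated Rα+/+ mouse lay below every other mouse, whereas the treated RαTd/Td mice split into a lower pair, mice 9 and 10, and a pair, mice 11 and 12, above the PBS-treated mice of their genotype.

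IL-4c lowered Marco 10.9 times in Rα+/+ mice (log2 fold change −3.45 ± 0.73 SE, adjusted p = 0.00382). In RαTd/Td mice the difference was −0.29 ± 0.69 on the log2 scale (95% interval −1.84 to 1.25, adjusted p = 0.752), an interval that holds both falls and rises. The genotypes differed in their response by 3.15 ± 1.00 (95% interval 0.91 to 5.40, unadjusted p = 0.0110 by limma), but this missed the threshold over all genes (adjusted p = 0.145). Compared directly after IL-4c, Marco was 4.54 times higher in RαTd/Td mice. The groups did not overlap, but how many of all genes separate the same mice was not counted. The log2 difference of 2.18 ± 0.61 also missed the threshold (adjusted p = 0.102). Without mouse 9 that difference was 2.65 with an adjusted p of 0.0230, and without mouse 12 it was 1.73 with an adjusted p of 0.190. After PBS the order was turned, with RαTd/Td below Rα+/+ by a log2 difference of −0.97 ± 0.79 (95% interval −2.75 to 0.82, adjusted p = 0.521). From high to low the group means were 2931 ± 234 (SD, n = 2) in PBS-treated Rα+/+, 1653 ± 1307 (SD, n = 4) in IL-4c-treated RαTd/Td, 1507 ± 256 (SD, n = 2) in PBS-treated RαTd/Td and 273 ± 65.4 (SD, n = 3) in IL-4c-treated Rα+/+ mice, and the middle pair did not differ beyond its spread.

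Cd36 fell after IL-4c in both genotypes. It was at 2114 and 1109.9 normalized counts in PBS-treated Rα+/+ mice, at 2482 and 2270.4 in PBS-treated RαTd/Td mice, at 345, 557 and 355 in IL-4c-treated Rα+/+ mice and at 409, 513, 718 and 1123 in IL-4c-treated RαTd/Td mice 9 to 12. In each genotype all treated mice lay below all untreated mice, although mouse 12 reached the level of PBS-treated mouse 2. The fall was 3.74-fold in Rα+/+ mice (log2 fold change −1.90 ± 0.42 SE, adjusted p = 0.00455) and 3.70-fold in RαTd/Td mice (−1.89 ± 0.40, adjusted p = 0.00348). In Rα+/+ mice the call ended without mouse 1 (−1.44, adjusted p = 0.0780) and under the methods' t-test (adjusted p = 0.0630). The difference between these falls was 0.02 ± 0.58 on the log2 scale (adjusted p = 0.987), but its 95% interval, −1.29 to 1.32, spans more than a doubling in either direction. Its sign turned with median centring (−0.02), with quantile normalization (−0.15) and without mouse 1 (−0.45), while without mouse 2 it was 0.48. RαTd/Td mice differed from Rα+/+ mice by a log2 value of 0.63 after PBS (95% interval −0.41 to 1.67) and 0.65 after IL-4c (−0.14 to 1.44), with adjusted p of 0.465 and 0.301. The value after PBS was 1.10 without mouse 1 and 0.17 without mouse 2, and neither was called. Group means ran from 2376 ± 149 (SD, n = 2) in PBS-treated RαTd/Td and 1612 ± 710.3 (SD, n = 2) in PBS-treated Rα+/+ to 691 ± 316 (SD, n = 4) in IL-4c-treated RαTd/Td and 419 ± 119.7 (SD, n = 3) in IL-4c-treated Rα+/+ mice, and neighbours within a treatment did not pass the test.

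Cd163 had the widest scatter among mice of a group. It was at 229.9 and 278 normalized counts in PBS-treated Rα+/+ mice and at 104.7 and 82.6 in PBS-treated RαTd/Td mice. After IL-4c it was at 41.2, 109.2 and 52.2 in Rα+/+ mice and at 159, 251, 52.8 and 718 in RαTd/Td mice 9 to 12. The treated Rα+/+ mice all lay below the untreated ones, whereas the treated RαTd/Td mice reached from the level of treated Rα+/+ mouse 7 (mouse 11) to above every other mouse (mouse 12). No comparison of Cd163 passed the threshold over all genes. In Rα+/+ mice it was 4.04 times lower after IL-4c, a log2 fold change of −2.02 ± 0.86 (95% interval −3.95 to −0.08, adjusted p = 0.0827). That difference was called without mouse 11 (adjusted p = 0.0300), without mouse 12 (adjusted p = 0.0344) and when only the groups compared were fitted (adjusted p = 0.0359). Neither mouse belongs to the groups compared, and leaving either out changed the pooled estimate of spread. In RαTd/Td mice the log2 fold change was 1.08 ± 0.82 (95% interval −0.75 to 2.92, adjusted p = 0.300), and 0.46 without mouse 12. The difference between the responses was 3.10 ± 1.19 (95% interval 0.43 to 5.76, unadjusted p = 0.0273 by limma, adjusted p = 0.225). After IL-4c the RαTd/Td mice were 3.17 times higher (log2 1.66, 95% interval 0.04 to 3.28, adjusted p = 0.223), a difference that came to 1.04 without mouse 12 and 2.29 without mouse 11. Group means were 295 ± 293 (SD, n = 4) in IL-4c-treated RαTd/Td, 254 ± 34.1 (SD, n = 2) in PBS-treated Rα+/+, 93.6 ± 15.6 (SD, n = 2) in PBS-treated RαTd/Td and 67.5 ± 36.5 (SD, n = 3) in IL-4c-treated Rα+/+ mice. Of the neighbours in this order only the PBS-treated groups were compared, with a log2 difference of −1.43 ± 0.94 (95% interval −3.55 to 0.69, adjusted p = 0.401).

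Mrc1 rose after IL-4c in RαTd/Td mice. It was at 162 and 203 normalized counts in PBS-treated Rα+/+ mice, at 123 and 135 in PBS-treated RαTd/Td mice, at 249.6, 311 and 129 in IL-4c-treated Rα+/+ mice and at 273, 444, 253 and 989 in IL-4c-treated RαTd/Td mice 9 to 12. All treated RαTd/Td mice lay above all PBS-treated mice of either genotype, while treated Rα+/+ mouse 7 lay below both PBS-treated Rα+/+ mice. The rise in RαTd/Td mice was 3.22-fold (log2 fold change 1.69 ± 0.52 SE, 95% interval 0.51 to 2.86, adjusted p = 0.0218). The call held without mouse 12 (1.27, adjusted p = 0.0246) but ended without mouse 3 (1.62, adjusted p = 0.112), mouse 4 (1.75, adjusted p = 0.0953) or mouse 10 (1.66, adjusted p = 0.0585), with no filter on low values (adjusted p = 0.0791), when only the groups compared were fitted (adjusted p = 0.0822) and under the methods' t-test (adjusted p = 0.125). In Rα+/+ mice the log2 fold change was 0.24 ± 0.55 (95% interval −0.99 to 1.48, adjusted p = 0.771). A rise in the one genotype and not in the other is not a shown difference here, since the responses differed by 1.44 ± 0.76 (95% interval −0.26 to 3.15, adjusted p = 0.394). The genotypes differed by a log2 value of −0.49 after PBS (95% interval −1.84 to 0.87) and 0.95 after IL-4c (−0.08 to 1.99, adjusted p = 0.241). Group means were 490.0 ± 344 (SD, n = 4) in IL-4c-treated RαTd/Td, 229.7 ± 92.5 (SD, n = 3) in IL-4c-treated Rα+/+, 183 ± 28.9 (SD, n = 2) in PBS-treated Rα+/+ and 129 ± 8.40 (SD, n = 2) in PBS-treated RαTd/Td mice, and no neighbours in this order passed the test.

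**Figure D1:**
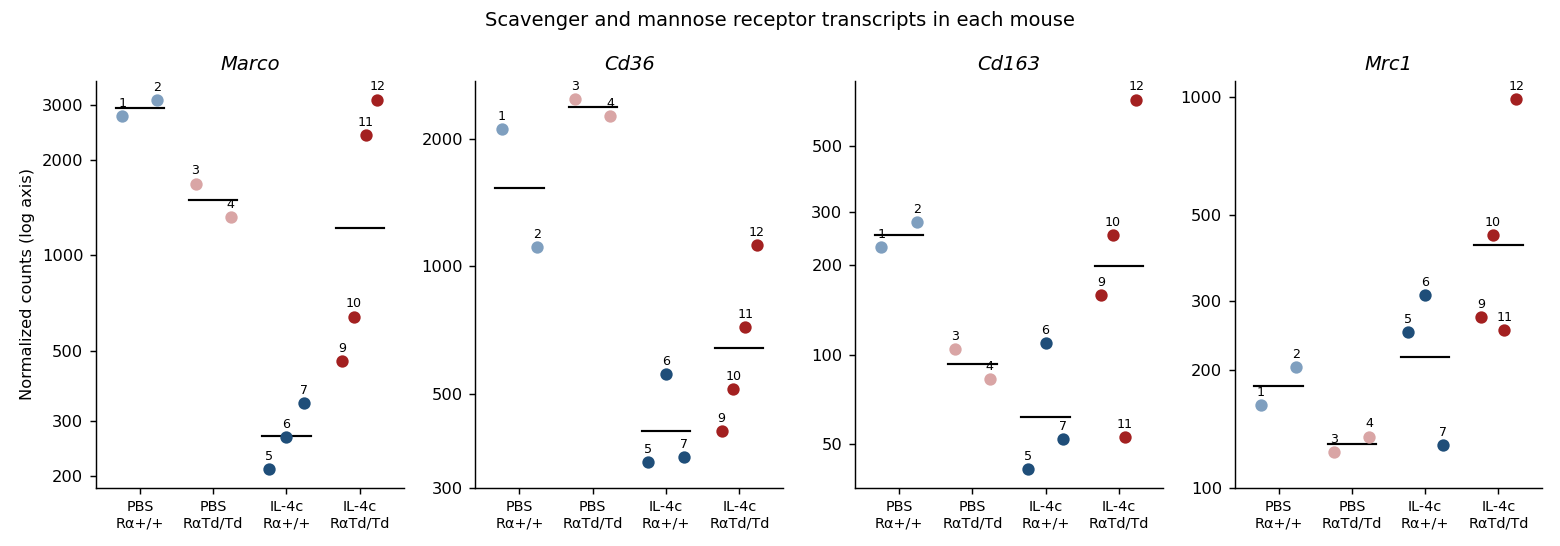
Normalized counts (log axis) of Marco, Cd36, Cd163 and Mrc1 in each of 11 mice, with the mouse number above each point, a panel per gene and a bar at the mean of the log2 values of each group. The treated Rα+/+ mice sit lowest for Marco (211 to 341), and mouse 12 is the highest treated mouse in every panel.

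Set side by side, 2 of the 4 receptors were called in Rα+/+ mice after IL-4c, both lower (Marco and Cd36), where 46.3% of the 445 genes tested were called and the median log2 fold change of all genes was −0.18. In RαTd/Td mice 2 of 4 were called, Cd36 lower and Mrc1 higher, where 51.9% of genes were called and the median was −0.23. Shares of this size are near those of the panel as a whole. Limma called 0 of 4 receptors between genotypes after PBS, where 9.66% of genes were called, and 0 of 4 had an unadjusted p under the threshold, against 102 of all 445 (2 of 4, Marco and Cd163, under the methods' t-test without adjustment, which called 54 of all 445). After IL-4c limma again called 0 of 4, where 2.7% of genes were called, with Marco and Cd163 (2 of 4) at an unadjusted p of 0.00532 and 0.0452, as 97 of all 445 genes were under the unadjusted threshold. For the difference in response limma called 0 of 4, where 2.02% of genes were called, with the same 2 genes past the unadjusted threshold, as were 69 of all 445. These comparisons share mice, so they are not independent of each other. The counts over all genes moved as single mice were left out, from 3 (without mouse 4) to 73 (without mouse 1) for the genotypes after PBS, from 5 (without mouse 5 or 12) to 27 (without mouse 9) after IL-4c and from 3 (without mouse 4 or 6) to 34 (without mouse 1) for the difference in response.

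**Figure D2:**
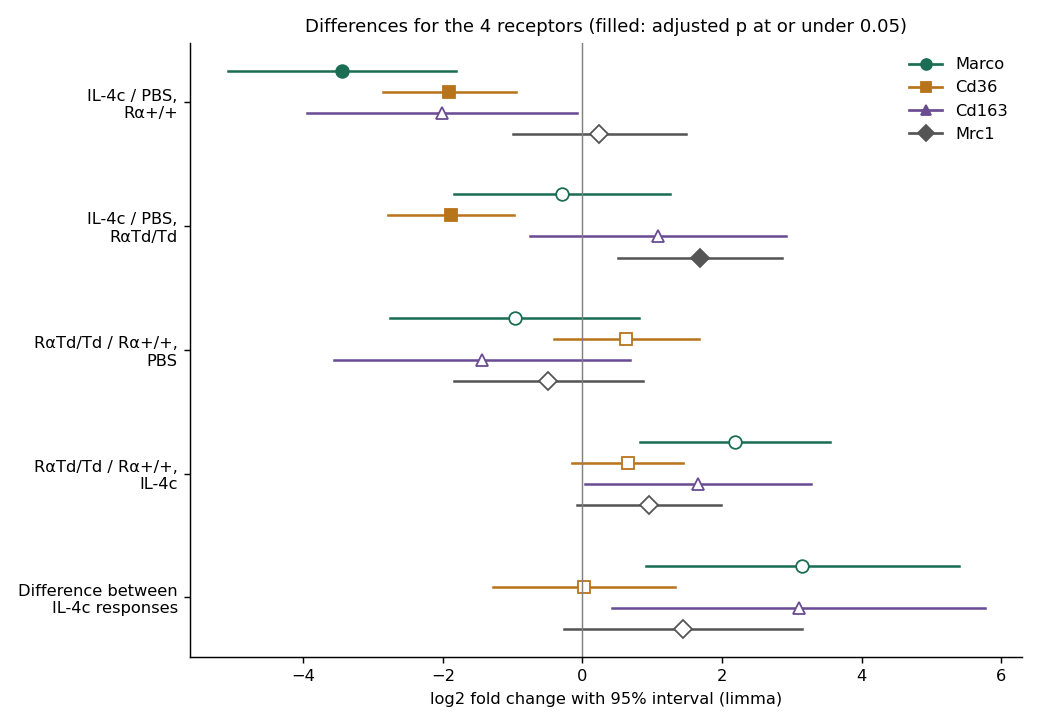
Log2 fold change of each receptor in the 5 comparisons, with bars for the 95% interval from limma and filled symbols where the adjusted p was at or under 0.05. Filled symbols are those of Marco (−3.45) and Cd36 (−1.90) in Rα+/+ mice and of Cd36 (−1.89) and Mrc1 (1.69) in RαTd/Td mice.

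**Figure D3:**
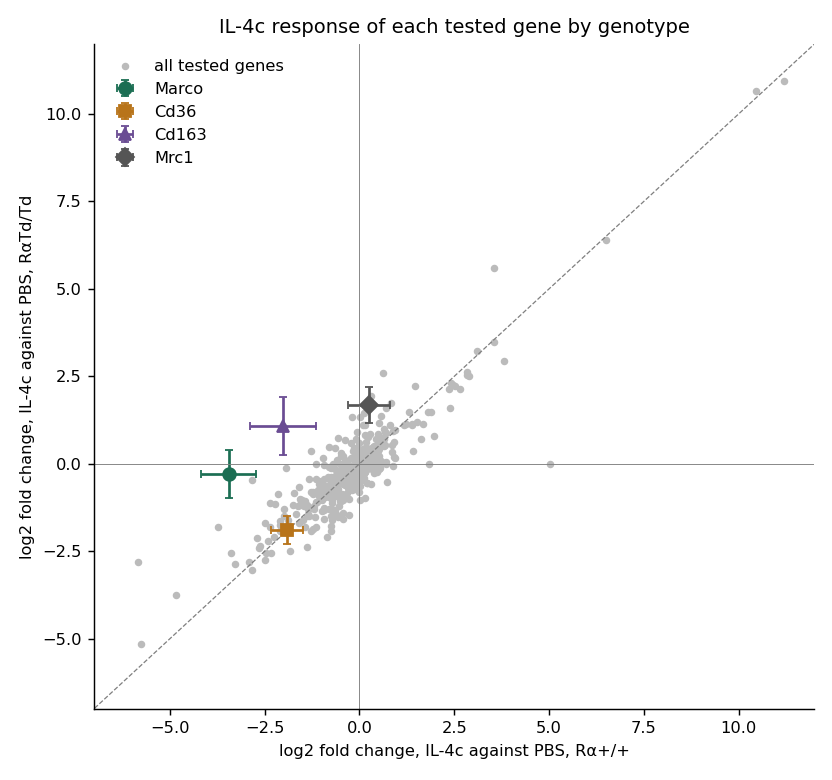
Log2 fold change of IL-4c against PBS in Rα+/+ mice (horizontal) and in RαTd/Td mice (vertical) for the 445 genes tested, in grey, and the receptors with their SE. The dashed line marks equal responses: Cd36 lies on it (−1.90 and −1.89), whereas Marco (−3.45 and −0.29) and Cd163 (−2.02 and 1.08) lie above it with wide errors.

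The scatter within groups was large for these receptors. Over the 11 mice the SD of log2 values around the group means was 1.09 for Cd163, 0.92 for Marco, 0.69 for Mrc1 and 0.53 for Cd36, against a median of 0.21 over the 445 genes. From the most variable gene down, Cd163 ranked 2, Marco 5, Mrc1 13 and Cd36 29. Before scaling, Marco rested on 184 to 4130 counts per mouse, Cd36 on 301 to 1480, Mrc1 on 66 to 862 and Cd163 on 36 to 626, so that the counting error was at most 7.37%, 5.76%, 12.3% and 16.7% of the value. These figures cover counting error only, and no other technical or biological spread. All 4 receptors were above the floor in all 11 mice, and all 4 were tested.

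Much of the scatter lay among the 4 IL-4c-treated RαTd/Td mice, which spread 6.72-fold from lowest to highest for Marco, 2.74-fold for Cd36, 13.6-fold for Cd163 and 3.91-fold for Mrc1. Relative to the mean of the treated Rα+/+ mice, mouse 12 was higher by a log2 value of 3.53 for Marco, 3.52 for Cd163, 2.19 for Mrc1 and 1.46 for Cd36. Mouse 11 was close to it for Marco (3.16) and next for Cd36 (0.81), but at −0.22 for Cd163 and 0.23 for Mrc1 it was the lowest of the treated RαTd/Td mice. Mouse 10 stood at 1.26, 0.33, 2.01 and 1.04 for Marco, Cd36, Cd163 and Mrc1, and mouse 9 at 0.79, 0.00, 1.35 and 0.34. The mice therefore ranked alike for Marco and Cd36 (12, 11, 10, 9) and alike for Cd163 and Mrc1 (12, 10, 9, 11). These rankings rest on 4 mice and carry no test.

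Several markers of small peritoneal macrophages, which derive from monocytes, were highest in mouse 12 among the treated mice. Of 9 such markers 6 were in the table and 5 above the floor (Ccr2, Irf4, H2-Aa, H2-Ab1 and Cd74), with Itgax at the floor in every mouse. Their summed level was 4338, 7025 and 4139 normalized counts in treated Rα+/+ mice and 6600.1, 11399.5, 12191 and 16935 in treated RαTd/Td mice 9 to 12, with Cd74 the most abundant in each. It was 6851 and 8335 in PBS-treated Rα+/+ mice and 22288 and 29953 in PBS-treated RαTd/Td mice, which had the lower Marco and Cd163 of the PBS-treated groups. Ccr2, the chemokine receptor of monocytes, was at 464 in mouse 12 and between 34.8 and 139 in the other treated mice. Irf4 did not follow, since in mouse 12 it lay at −0.16 on the log2 scale from the mean of the treated Rα+/+ mice, rank 5 of the 7 treated mice. It was called higher after IL-4c in Rα+/+ mice (0.55, adjusted p = 0.0277), a call lost under 6 of 23 alternatives, including without mouse 2 or 6, and the difference between the genotypes' responses was not called (−0.66, adjusted p = 0.219). The MHC class II genes of the list were called with treatment in RαTd/Td mice and between genotypes. Of all genes, 51.9% were called with treatment in RαTd/Td mice, and 9.66% and 2.7% between genotypes after PBS and IL-4c. H2-Aa (−1.19), H2-Ab1 (−1.02) and Cd74 (−1.31) were called lower after IL-4c in RαTd/Td mice, calls lost under 3, 7 and 5 of 23 alternatives (each without mouse 4, and H2-Ab1 without mouse 10). In Rα+/+ mice none of the 3 was called after IL-4c (−0.53, −0.44 and −0.66, adjusted p = 0.240, 0.338 and 0.197 by limma). Nor was the difference between the genotypes' responses (−0.66, −0.58 and −0.65, adjusted p = 0.536, 0.589 and 0.576). All 3 were called higher in RαTd/Td mice after PBS (1.97, 1.94 and 1.73), lost under 5, 6 and 13 of 23 (each without mouse 2 or 4, H2-Ab1 and Cd74 also without mouse 1, and Cd74 without mouse 3, 5, 7, 10 or 11). After IL-4c H2-Aa (1.31) and H2-Ab1 (1.36) were called higher in RαTd/Td mice, calls that most alternatives ended (16 and 15 of 23, including leaving out any single mouse other than 6 or 9). Cd74 was not called in that comparison (1.08, adjusted p = 0.104 by limma). Of 8 markers of large peritoneal macrophages, the resident cells, 4 were in the table (Gata6, Timd4, Alox15 and Selp), and their summed level was 8262, 7819 and 9296 in treated Rα+/+ mice and 10544, 10130.5, 9818 and 5959 in treated RαTd/Td mice 9 to 12, with Alox15 the most abundant. In PBS-treated mice the sum was between 15076 and 19373, above every treated mouse. Timd4 (−1.48 and −1.61 in Rα+/+ and RαTd/Td mice) and Selp (−1.01 and −0.99) fell after IL-4c under all 23 alternatives, and Alox15 (−0.99 and −1.02) fell with calls lost under 8 of 23 in each genotype, with mice 1, 2, 5 or 6 left out in Rα+/+ and mice 3 or 4 in RαTd/Td mice among them. Gata6 was not called (0.00 and −0.06). Of all genes, 46.3% were called with treatment in Rα+/+ and 51.9% in RαTd/Td mice. The falls of Timd4, Selp and Alox15 moved with those of Cd36 in both genotypes and of Marco in Rα+/+ mice. The sum was lowest in mouse 12. Among the 4 treated RαTd/Td mice it was lowest for all 4 markers, at −0.86 on the log2 scale from the mean of the treated Rα+/+ mice for Alox15, −0.09 for Gata6, −0.03 for Selp and 0.19 for Timd4. Of 9 monocyte and neutrophil markers 8 were in the table and 4 above the floor in any mouse. Ly6g, Mpo, Elane and Cxcr2 were at the floor throughout, and the sum of those above it was between 385 and 629.8 in PBS-treated mice and between 0 and 150.9 in treated mice, with 133 in mouse 12. Its most abundant gene, Csf3r, was called lower in both genotypes (−2.92 and −2.81), and so moved with treatment as Cd36 did. S100a8 was called lower in Rα+/+ mice (−1.32, adjusted p = 0.00807, lost without mouse 2) but not in RαTd/Td mice (−0.43, adjusted p = 0.282), and the difference between these was not called (0.89, adjusted p = 0.381). S100a8 was at the floor in all treated Rα+/+ mice and in mice 4, 9 and 10, and Csf3r in mouse 5, so these log2 values depend on the floor. Of 5 mast cell markers 4 were in the table, and of these Cpa3 left the floor in mouse 1 (48.2) while Kit, Fcer1a and Tpsb2 were at it in every mouse. The part of these markers in the receptor values was not tested.

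**Figure D4:**
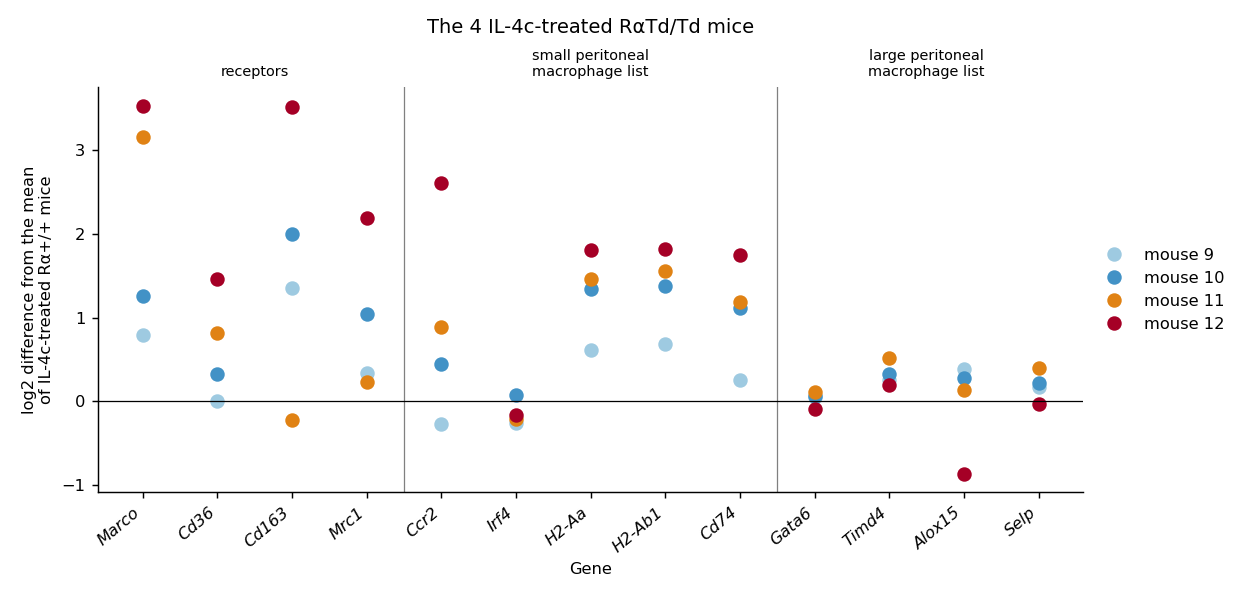
Log2 difference of each IL-4c-treated RαTd/Td mouse (mice 9 to 12, by colour) from the mean of the 3 treated Rα+/+ mice, for the receptors, the small peritoneal macrophage markers and the large peritoneal macrophage markers above the floor. Mouse 12 is highest for all 4 receptors and for Ccr2 (2.62), and lowest for Alox15 (−0.86).

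The other scavenger receptor classes are thinly covered by the panel, with 6 of 24 genes in the table and 5 tested (Cd68, Olr1, Clec7a, Cxcl16 and Stab1), since Cd44 was at the floor. After IL-4c 3 of these 5 fell in Rα+/+ mice, where 46.3% of all genes were called, with a list median of −1.51. They were Clec7a (Dectin-1, a receptor for fungal glucans, −3.28), Stab1 (stabilin-1, −2.84) and Cxcl16 (a membrane-bound chemokine that also binds oxidized lipoproteins, −1.51). In treated Rα+/+ mice Clec7a was at 30, 37.6 and 30 and Cxcl16 at 30, 40.04 and 30, mostly at the floor, so their log2 values depend on it and give no exact size. In RαTd/Td mice Clec7a (−2.86) and Cxcl16 (−1.18) fell, Cd68 (a lysosomal scavenger receptor) rose (0.83, adjusted p = 0.00364), and the list median was −0.46, where 51.9% of all genes were called. The calls for Cxcl16 were lost under 5 of 21 alternatives in Rα+/+ mice (without mouse 1 or 7 among them) and 12 of 21 in RαTd/Td mice (without mouse 3, 4, 5, 7, 9 or 10 among them). None of the 5 was called between genotypes or for the difference in response. Of all genes, 9.66% were called between genotypes after PBS, 2.7% after IL-4c and 2.02% for the difference in response. Stab1 came near, with values like those of Marco: 474 and 242 in PBS-treated Rα+/+ mice, 114.0 and 127.7 in PBS-treated RαTd/Td mice, 50.4, 46.1 and 42.9 in treated Rα+/+ mice and 50.5, 69.2, 111.0 and 148 in treated RαTd/Td mice. Stab1 was thus highest in PBS-treated Rα+/+ mice, and its responses differed by 2.38 ± 0.58 (adjusted p = 0.0571).

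Other C-type lectin receptors gave little to set beside Mrc1. Of 19 listed, 5 were in the table, and Mrc2, Clec9a and Clec1b were at the floor. The list medians were −0.22 in Rα+/+ and −0.74 in RαTd/Td mice after IL-4c. Clec5a was higher after PBS in RαTd/Td mice (106.5 and 77.0 normalized counts) than in Rα+/+ mice (56.3 and 30), at a log2 difference of 1.12 that depends on the floor (adjusted p = 0.0287, lost under 10 of 21 alternatives, including without mouse 2, 3, 4, 5 or 10), and was at the floor in all treated mice. Its fall was called in RαTd/Td mice (−1.56) but not in Rα+/+ mice (−0.44, adjusted p = 0.137), and the difference between these was not called (−1.12, adjusted p = 0.1004). Cd209e left the floor in mouse 10 alone (38.2).

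Among genes of lipid handling, where Cd36 brings in fatty acids, 7 of 14 were in the table and 6 tested, with Pparg at the floor in every mouse. Apoe, which carries cholesterol out of macrophages, and Lpl, the lipase that frees fatty acids for uptake, fell after IL-4c in both genotypes (Lpl by −3.38 ± 0.85 and −2.54 ± 0.81 on the log2 scale, adjusted p = 0.00897 and 0.0242). The Lpl calls were lost under 2 of 23 alternatives in Rα+/+ mice (without mouse 1 among them) and 9 of 23 in RαTd/Td mice (without mouse 1, 2, 3, 4 or 10 among them). Fabp4, a fatty acid carrier of the cytosol, fell in RαTd/Td mice (−1.04 ± 0.35, adjusted p = 0.0293), from 1527 and 1437 normalized counts after PBS to between 558 and 1083 after IL-4c, a call lost under 10 of 23 alternatives, including without mouse 3, 4, 9, 10 or 12. In Rα+/+ mice its log2 fold change was 0.02, and the difference between the responses was not called (−1.06, adjusted p = 0.342). Nr1h3 and Lipa were not called in any comparison. The list medians were 0.10 in Rα+/+ and −0.55 in RαTd/Td mice, and no gene of the list was called between genotypes. Of all genes, 9.66% were called between genotypes after PBS and 2.7% after IL-4c. Of 13 hemoglobin and iron handling genes that would belong beside Cd163, only Il10 was in the table, at the floor in every mouse.

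Signalling partners and co-receptors of these receptors were better covered, with 11 of 14 in the table and 10 tested. The same 5 fell after IL-4c in each genotype, namely Tlr2, Cd14, Syk, Vav1 and Mertk, and none rose (list medians −0.36 and −0.35). That is 5 of 10 in each, near the shares of all genes called (46.3% and 51.9%). Syk and Vav1 lost calls under 1 to 3 of 23 alternatives, Syk in both genotypes under median centring and quantile normalization and in RαTd/Td mice without mouse 3, and Vav1 in Rα+/+ mice under median centring and in RαTd/Td mice without mouse 4. Tlr2, which works with Cd36 in sensing bacterial lipids, was at 121, 134, 151 and 150.2 in PBS-treated mice 1 to 4 and at the floor in all treated mice except mice 11 (63.6) and 12 (42.5), so the size of its fall depends on the floor. Cd14 fell by 2.09 ± 0.24 and 1.63 ± 0.23 on the log2 scale. After IL-4c, Cd14 (log2 0.97 ± 0.20) and Mertk, a receptor for dying cells (0.78 ± 0.16), were higher in RαTd/Td mice, each with an adjusted p of 0.0421. Most alternatives ended these calls, 13 of 23 for Cd14 and 15 of 23 for Mertk. Both were lost with no filter (adjusted p = 0.150 and 0.142), with 1 floor for all mice, with only the groups compared, under the methods' t-test with adjustment, and without any of mice 1 to 6, 11 or 12. Cd14 was also lost without mouse 7, and Mertk without mouse 10 and under both scalings. None of the 10 was called between genotypes after PBS or for the difference in response, where 9.66% and 2.02% of all genes were called.

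Of 16 genes of the IL-4 response, all were in the table and 14 tested, with Ccl17 and Ccl22 at the floor. In Rα+/+ mice 6 were higher after IL-4c and 5 lower, and in RαTd/Td mice 5 were higher and 4 lower, with list medians of 0.32 and 0.00. The panel as a whole rose in 13.9% and fell in 32.4% of its tested genes for Rα+/+, and in 15.3% and 36.6% for RαTd/Td. These shares depend on the scaling, since median centring called 106 genes higher and 92 lower for Rα+/+ (62 and 144 as reported) and 104 and 110 for RαTd/Td (68 and 163), and quantile normalization 104 and 107, and 89 and 109. Between genotypes Retnla was called after each treatment. Mouse 12, with the highest Marco, Cd163, Mrc1 and Cd36 of the treated mice, had the lowest Chil3 (43527) and Chil4 (33420) among them, though far above the PBS-treated mice, of which mouse 1 alone left the floor in Chil4 (53.1).

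The genes most like each receptor were sought among the 445 by the root mean square difference of log2 profiles, each centred on its own mean over the 11 mice. Those nearest to Marco were Stab1 (0.73), Fpr2 (0.75) and C5ar1 (0.76), where the median gene was at 1.38. Fpr2 was between 105 and 210.3 normalized counts in PBS-treated mice, at the floor in the treated mice other than 11 and 12, and at 108.9 and 117 in that pair. Those nearest to Cd36 were Mpeg1 (0.28), Cebpa (0.29) and Marcksl1 (0.30), against a median of 0.95, and Mpeg1 went from between 984 and 2036 to between 231 and 713 with treatment. Those nearest to Mrc1 were Ctsl (0.39), Ccl6 (0.40) and S100a4 (0.49), against a median of 0.95, and each was highest in mouse 12. Those nearest to Cd163 were Emp1 (0.82), Tuba1a (0.85) and Trem2 (0.88), against a median of 1.22, and were farther off than those of the other receptors. Each of these was also highest in mouse 12. Among the receptors themselves the nearest pairs were Cd163 with Mrc1 (0.93) and Marco with Cd36 (0.94), and the farthest was Marco with Mrc1 (1.61).

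The sequences before the transcription starts are shown for the 3 receptors that were called, since Marco and Cd36 fell and Mrc1 rose. They are the 250 bases before the start in RefSeq's mouse annotation (GRCm38.p6), and all 4 receptors matched an entry. Motifs were searched on both strands: TTC and GAA with any 4 bases (NNNN) between them, the spacing that STAT6 prefers, and GAGGAA, the core bound by the macrophage factor PU.1. The motifs do not overlap in these windows, and capitals mark every match of either on the strand shown. Marco lies on the minus strand of chromosome 1 (chr1:120505025-120505274), Mrc1 on the plus strand of chromosome 2 (chr2:14229164-14229413) and Cd36 on the minus strand of chromosome 5 (chr5:17835897-17836146), where the start used is 1 of several and the window falls within the longest extent of the gene (17781690 to 17888959).
Marco: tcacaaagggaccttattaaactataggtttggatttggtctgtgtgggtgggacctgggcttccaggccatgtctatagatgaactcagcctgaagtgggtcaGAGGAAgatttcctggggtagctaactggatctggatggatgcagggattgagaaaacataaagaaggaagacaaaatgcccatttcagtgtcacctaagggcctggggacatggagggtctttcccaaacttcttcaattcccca
Mrc1: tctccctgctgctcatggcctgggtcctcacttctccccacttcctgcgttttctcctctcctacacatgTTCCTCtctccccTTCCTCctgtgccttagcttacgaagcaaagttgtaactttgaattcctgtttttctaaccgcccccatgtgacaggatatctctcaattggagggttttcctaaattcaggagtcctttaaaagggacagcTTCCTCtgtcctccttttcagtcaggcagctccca
Cd36: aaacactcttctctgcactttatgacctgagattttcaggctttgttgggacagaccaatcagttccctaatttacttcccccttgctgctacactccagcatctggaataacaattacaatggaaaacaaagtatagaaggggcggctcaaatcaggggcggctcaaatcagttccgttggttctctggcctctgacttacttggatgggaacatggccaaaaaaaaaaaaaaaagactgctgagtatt
The STAT6 form was in none of the 4 receptor windows, Cd163 included, and in 1923 of all 32851 windows of that length (5.85%). The window of Retnla held it once, 145 bases before the start. GAGGAA was in 7639 of the 32851 windows (23.3%), in that of Marco once (146 bases before the start) and in that of Mrc1 3 times (180, 167 and 35 bases before it, in each case read on the other strand as TTCCTC), but not in those of Cd36 or Cd163. A match is a description of the letters and no match says only that they are not in this window.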

How the data were processed

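Sorted macrophages of 11 mice were lysed and counted on the Myeloid Innate Immunity v2 panel of Nanostring. The gene values the authors deposited are linear signal in normalized counts, scaled to 4 housekeeping genes, with low values raised to 30 and 14 control probes left raw. Dividing by the factor of each mouse (0.750 to 1.88) gave the counts, of which 268858 to 574505 per mouse lay above the floor. No negative control exceeded 13 counts.

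Of 754 genes, the 445 with a mean above 30 were tested. Their log2 values, with 1 added beforehand, went into limma 3.58.1 (R 4.3.3) as a model of group means whose spread was pooled over all mice. P-values were two-sided and adjusted by Benjamini-Hochberg over the genes of each of 5 comparisons, with calls at 0.05 or less. Tables and figures were made in Python 3.11.15. The fit was tested on simulated data.

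The genes named are the 4 receptors, Retnla as label check, members of companion and cell marker lists, and the 3 nearest genes by profile. Members and lists were chosen with earlier results of these data known. List genes named for values in single mice were chosen after their values were seen. Alternatives were other filters (none, a mean above 100, above 30 in every mouse), 10 added, median centring, quantile normalization, 1 floor of 56.3, only the groups compared, limma with trend and robust moderation, the methods' t-test, unadjusted p, and each mouse left out. The companion and marker genes given with counts of alternatives were rerun under the same settings, which was decided after seeing the data. All 11 columns were used. A treated Rα+/+ mouse that the study removed has no column and was not analysed.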

Additional observations from a re-analysis of the deposited data

Results flagged for a closer look

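Among the 4 IL-4c-treated RαTd/Td mice, the only group of 4 or more, 58 genes (receptors, companion and marker lists) were examined for a mouse far from the others. In all 7 values stood apart, 5 of them in mouse 12. The values were compared as normalized counts, not as log2 values. Chance marks about 1 in 20 such groups only where values are not tied and follow a normal distribution, which was not checked. That rate does not hold for the 6 values other than Ccl24, and for Ccl24 it is not known to hold. No receptor was among the 7 values, although mouse 12 was the highest of the group for all 4 receptors. Ccl24, a chemokine that attracts eosinophils, was at 3689 normalized counts in mouse 12, against 657, 958 and 1042 in mice 9 to 11. The other 6 are low values in a single mouse where the rest were at the floor of 30, so that any value above the floor stands apart, and genes at the floor in all 4 mice never can. In mouse 12 these were Fcgr1 (64.3), Ms4a1 (63.1), Cdh1 (40.2) and Olr1 (37.9), in mouse 10 Cd209e (38.2) and in mouse 9 S100a9 (31.4). The cause was not tested.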

How the results depend on the processing

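The 20 receptor results (4 genes in 5 comparisons) had 448 values under the alternatives, of which 426 stayed on their side of the threshold, 9 lost a call and 13 gained 1, and no call was reversed. Mrc1 in RαTd/Td mice (1.69) was no longer called with no filter, with only the groups compared, or under the methods' t-test with or without adjustment, and Cd36 in Rα+/+ mice (−1.90) not under the adjusted t-test. Cd163 in Rα+/+ mice (−2.02) was called with only the groups compared, under the unadjusted t-test and at an unadjusted p from limma. The unadjusted t-test also called Marco (−0.97) and Cd163 (−1.43) after PBS and Marco after IL-4c (2.18). The unadjusted p from limma called Marco (2.18) and Cd163 (1.66) after IL-4c, and both for the difference in response (3.15 and 3.10).

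Leaving out single mice moved Mrc1 in RαTd/Td mice from 1.27 to 1.93, Cd36 in Rα+/+ mice from −2.37 to −1.44, Cd163 in Rα+/+ mice from −2.42 to −1.73 and Marco between genotypes after IL-4c from 1.73 to 2.65. Values that were not called moved too, among them Marco (−0.74 to 0.17) and Cd163 (0.46 to 1.71) in RαTd/Td mice, Mrc1 in Rα+/+ mice (−0.02 to 0.61), Cd36 between genotypes after PBS (0.17 to 1.10) and Cd163 after IL-4c (1.04 to 2.29). It moved the counts of genes called from 3 to 73 after PBS, from 5 to 27 after IL-4c and from 3 to 34 for the difference in response. Where 1 mouse was left in a group, it was assumed to vary like the others.

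Between genotypes after PBS (43 genes), the count was 18 with no filter, 26 with median centring, 23 with quantile normalization, 3 with only the groups compared, 2 under the adjusted t-test and 102 at an unadjusted p from limma. After IL-4c (12 genes), it was 5 with no filter, 7 with a mean above 100, 6 with more than 30 in every mouse, 3 with 1 floor, 2 with only the groups compared, 2 under the adjusted t-test, and 73 (t-test) and 97 (limma) unadjusted. For the difference in response (9 genes), it was 4, 2, 18, 16 and 69 with a mean above 100, more than 30 in every mouse, quantile normalization, 1 floor and an unadjusted p. The cause was not tested, apart from fewer genes or mice where the setting itself removes them.

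Each genotype had 2 PBS-treated mice. The positive controls were lower in lanes of treated mice (geometric mean 301 to 623 counts) than in those of PBS-treated mice (853 to 1021), and lane and treatment cannot be told apart. Among treated mice they were lower in lanes of Rα+/+ (301 to 441) than of RαTd/Td mice (507 to 623). Lane and genotype therefore cannot be told apart after IL-4c either. Median centring shifted every gene by 0.30 and 0.26 after IL-4c in Rα+/+ and RαTd/Td mice, by −0.15 and −0.19 between genotypes after PBS and IL-4c, and by −0.04 for the difference in response. Relative to that shift the calls for Marco (−3.15) and Cd36 (−1.61) in Rα+/+ mice and for Cd36 (−1.63) and Mrc1 (1.94) in RαTd/Td mice held.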
